A study of Mus musculus with 4 samples.

Results

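CCCTC-binding factor (CTCF) is a zinc finger protein that binds a core DNA motif and, together with cohesin, marks many loop anchors and domain borders. Most of its sites are occupied in many tissues, and a minority varies between cell types, often away from promoters. The regions described here are CTCF peaks that were wide, were called in the telencephalon and not in the medial ganglionic eminence (MGE), and lay away from the ends of genes. They were chosen from peaks of chromosomes 1 to 19 in the telencephalon list by 4 criteria: a width above 275 bp, no overlap with an MGE peak, a midpoint more than 1 kb from every gene end, and a midpoint inside a gene or at most 100 kb from one. The list held 31141 peaks on these chromosomes, of which 15831 reached the width. Of these, 4537 overlapped no MGE peak, 3669 also lay away from gene ends, and 3616 met all criteria. They covered 1.34 Mb. Positions are given on build mm10, counted from 1.

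The series has 4 samples from mouse embryos at embryonic day 13.5, namely a CTCF library and an input library of the telencephalon and the same of the MGE, the ventral forebrain region that produces many cortical interneurons. Chromatin was sheared by sonication to about 500 bp and precipitated with a rabbit antibody against CTCF in both tissues. Strain, sex, the number of embryos per library and whether the MGE was part of the telencephalon sample are not stated in the labels. The dissection text names the MGE for every sample. Each tissue had 1 CTCF library, so no comparison has a replicate and no p-value was computed. Every interval given below is at the 95% level, by the exact Clopper-Pearson method, and covers counting error only. The libraries were made with different kits, and the track names carry p001 for the telencephalon and p01 for the MGE. Tissue, kit and any difference in calling threshold cannot be told apart. The files give a position per peak and no height, and read depth is unknown, so a peak missing from the MGE list may lie below its calling limit. The telencephalon track name begins with e14, although its sample carries the age label of embryonic day 13.5.

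The 3616 peaks were 28.7% of the 12616 wide telencephalon peaks that met the same rules on gene distance. The remaining 9000, which overlapped an MGE peak, are called shared wide peaks below. Across all telencephalon peaks of chromosomes 1 to 19, 52.6% overlapped no MGE peak, and among narrower gene-distal peaks the share was 77.3%. In the opposite direction, 22.0% of gene-distal MGE peaks above 275 bp overlapped no telencephalon peak (2633 of 11964). These shares follow from the rule and are given as background. The lists differ in their narrowest peaks. Narrower gene-distal telencephalon-only peaks went down to 150 bp. Of 191 MGE peaks that were nearest to a telencephalon-only peak and within 1 kb, 29 shared the narrowest width seen, which was above 150 bp. The same width minimum thus lay closer to the narrowest of these MGE peaks. How far this shapes the comparisons with MGE-only peaks of the same widths was not tested.

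A small group of the telencephalon-only peaks overlapped the promoter window of an annotated transcription start inside a gene, and RefSeq (GRCm38.p6, 250 bases before to 50 after a start) gives the DNA sequence of these windows. Not every such peak reached the start itself. Such starts lie inside the annotated span of the gene, since gene ends were left out. Whether each is a main or an alternative start was not examined. Chromosome 18 was not used for this. Of 3497 telencephalon-only peaks, 30 overlapped such a window (0.858%, interval 0.580 to 1.22%), against 84 of 8725 shared wide peaks (0.963%, 0.769 to 1.19%). Narrower telencephalon-only peaks did so in 47 of 9512 cases (0.494%, 0.363 to 0.657%) and MGE-only peaks of the same widths in 7 of 2530 (0.277%, 0.111 to 0.569%). The sequences below show what such sites hold. The fixed letters of the CTCF core motif, which are CCA, any 2 bases, AG, any 2 bases and GGC, were searched on both strands. No other motif was searched.

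Exact matches were found in 3 of the 30 windows (10%, interval 2.11 to 26.5%), all inside the peak, against 16 of 84 windows under shared wide peaks (19%, 11.3 to 29.1%). Among all 31396 promoter windows of the table on the chromosomes used, 776 held them (2.47%). The intervals of the telencephalon-only and shared windows overlapped. Windows under narrower telencephalon-only peaks held an exact match in 4 of 47 cases (8.51%, 2.37 to 20.4%). Those under MGE-only peaks of the same widths did so in 1 of 7. With 1 mismatch allowed in the part of the window that the peak covered, 12 of 30 telencephalon-only windows (40.0%, 22.7 to 59.4%) and 50 of 84 shared windows (59.5%, 48.3 to 70.1%) had a match. In whole windows the counts were 17 of 30 under telencephalon-only peaks, 52 of 84 under shared peaks and, over all promoters, 9656 of 31396 (30.8%). Covered parts had a median length of 256.5 bp in telencephalon-only and 276.5 bp in shared peaks. The windows were GC-rich in both groups, with a median GC content of 59.8% under telencephalon-only peaks and 57.7% under shared peaks, against 53.0% over all promoter windows. The median number of CpG dinucleotides per window was 16 under telencephalon-only peaks and 17 under shared peaks, against 7 over all windows. Windows under narrower telencephalon-only peaks were alike, with medians of 60.3% GC and 17 CpG. The 7 windows under MGE-only peaks had 70.7% GC and 25 CpG. A match describes these letters only.

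The 3 windows with an exact match are printed first, on the strand of the gene and with the match in capitals. They belong to Rgs8, a regulator of G protein signalling (window chr1:153665423-153665722, plus strand, peak chr1:153665387-153665700), Otop2, a proton channel gene that overlaps Ush1g at this position (window chr11:115322280-115322579, plus strand, peak chr11:115322330-115322652), and Uaca (window chr9:60794192-60794491, plus strand, peak chr9:60794216-60794502).
Rgs8: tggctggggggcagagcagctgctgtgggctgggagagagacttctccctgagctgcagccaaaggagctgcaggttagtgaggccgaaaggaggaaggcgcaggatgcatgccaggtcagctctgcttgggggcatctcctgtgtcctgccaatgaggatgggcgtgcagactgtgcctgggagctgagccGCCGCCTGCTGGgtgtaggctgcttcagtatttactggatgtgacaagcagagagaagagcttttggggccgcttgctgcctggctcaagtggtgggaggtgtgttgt
Otop2: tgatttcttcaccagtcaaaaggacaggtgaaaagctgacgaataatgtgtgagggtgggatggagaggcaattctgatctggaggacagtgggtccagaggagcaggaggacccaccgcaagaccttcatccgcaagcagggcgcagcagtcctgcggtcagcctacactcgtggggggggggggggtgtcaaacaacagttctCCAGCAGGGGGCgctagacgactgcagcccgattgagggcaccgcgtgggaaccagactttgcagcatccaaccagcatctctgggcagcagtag
Uaca: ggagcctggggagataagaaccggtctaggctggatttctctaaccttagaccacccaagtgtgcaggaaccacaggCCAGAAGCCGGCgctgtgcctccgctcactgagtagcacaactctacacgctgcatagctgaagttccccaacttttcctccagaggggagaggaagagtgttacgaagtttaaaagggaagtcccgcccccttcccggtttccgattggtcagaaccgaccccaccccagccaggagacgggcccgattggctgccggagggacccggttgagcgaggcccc
The match in Rgs8 lies on the strand opposite to the gene. The peaks at Rgs8, Otop2 and Uaca were 314, 323 and 287 bp wide, and the nearest MGE peaks lay 76685, 31511 and 8127 bp away.

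The peak covered all 300 bases in 8 of the 30 windows, of which 4 held a match with 1 mismatch (Grb2, Hnrnpl, Itpa and Msantd2) and 4 held none (Commd1, Arvcf, Tmod4 and Arhgef1). As examples of each, chosen after their matches were seen, 3 are printed. Grb2 encodes an adaptor of receptor tyrosine kinases (window chr11:115699485-115699784, minus strand) and Hnrnpl an RNA-binding splicing factor (window chr7:28810640-28810939, plus strand). Each held a single match with 1 mismatch, shown in capitals. Commd1, a gene of copper and protein trafficking (window chr11:22982235-22982534, minus strand), held none.
Grb2: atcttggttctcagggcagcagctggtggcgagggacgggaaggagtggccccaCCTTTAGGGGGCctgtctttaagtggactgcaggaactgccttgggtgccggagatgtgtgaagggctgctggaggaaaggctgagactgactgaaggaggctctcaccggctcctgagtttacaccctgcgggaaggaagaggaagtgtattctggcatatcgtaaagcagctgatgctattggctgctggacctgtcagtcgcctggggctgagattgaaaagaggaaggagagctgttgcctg
Hnrnpl: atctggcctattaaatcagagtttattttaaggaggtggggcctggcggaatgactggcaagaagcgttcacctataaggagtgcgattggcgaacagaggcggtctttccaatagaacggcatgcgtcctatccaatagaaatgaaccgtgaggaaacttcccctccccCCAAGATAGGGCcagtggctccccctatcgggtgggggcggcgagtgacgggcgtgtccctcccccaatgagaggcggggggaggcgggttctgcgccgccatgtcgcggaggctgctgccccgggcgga
Commd1: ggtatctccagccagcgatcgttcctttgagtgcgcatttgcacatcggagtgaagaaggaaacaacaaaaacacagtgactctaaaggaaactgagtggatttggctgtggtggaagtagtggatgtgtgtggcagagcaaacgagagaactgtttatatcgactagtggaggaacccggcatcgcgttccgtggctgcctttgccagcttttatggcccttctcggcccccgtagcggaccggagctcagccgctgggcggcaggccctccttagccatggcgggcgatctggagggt
The peaks were 353 bp wide at Grb2, 340 bp at Hnrnpl and 380 bp at Commd1, with the nearest MGE peaks 14526, 13503 and 4812 bp away. Other genes with a telencephalon-only peak that overlapped the window of an internal start included Fgf14, an intracellular modulator of sodium channels (318 bp), Tmeff2 (343 bp), Dab2, an endocytic adaptor (330 bp), and Bcl2l11, a promoter of apoptosis (298 bp).

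Width was used by the rule, so the widths are a description. The median was 338 bp (interquartile range 299 to 417 bp) in telencephalon-only peaks and 395 bp (324 to 500 bp) in shared wide peaks. At the border, 44 peaks had the minimum width, 1 bp above 275 bp, among them 1 inside the kainate receptor gene Grik2 (chr10:49784900-49785175) and 1 inside Nmnat2, an axon survival enzyme (chr1:153066426-153066701). A further 52 gene-distal telencephalon-only peaks had 275 bp and fell just outside, such as those inside Prkca (chr11:108030988-108031262) and Dtnb (chr12:3661269-3661543). The telencephalon-only share of wide gene-distal peaks was lower in wider classes. It was 43.9% up to 300 bp, 34.0% above 300 and up to 350 bp, 28.7% up to 400 bp, 23.6% up to 500 bp and 16.3% up to 700 bp. Above 700 bp, 33 of 409 peaks were telencephalon-only (8.07%).

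**Figure D1:**
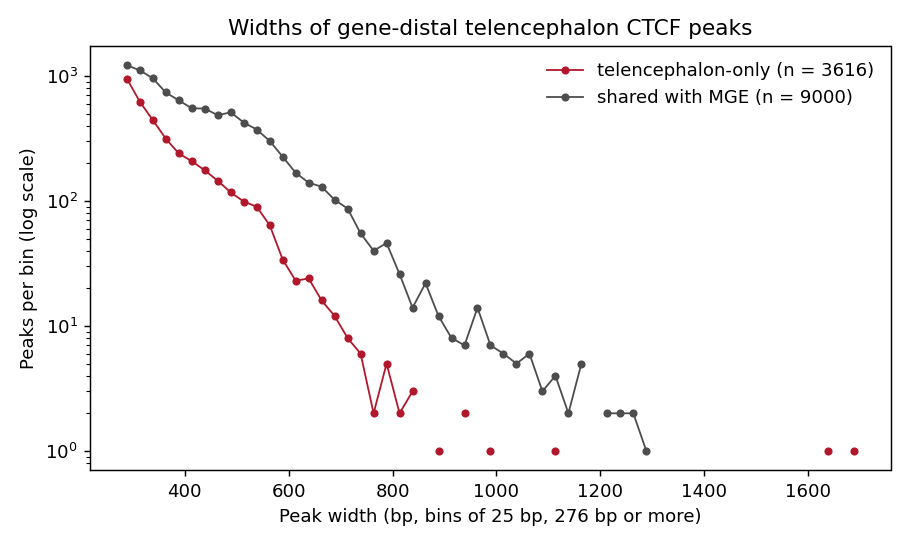
Number of gene-distal telencephalon peaks per 25 bp bin of width (log scale) for telencephalon-only (red) and shared (grey) peaks above 275 bp. From the narrowest bin, 954 telencephalon-only and 1219 shared peaks, the telencephalon-only points fall faster, and the 2 at the far right are the peaks of 1642 and 1694 bp on chromosome 12.

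The widest telencephalon-only peaks were scattered over the genome with 1 exception. Peaks of 1642 and 1694 bp on chromosome 12 lay 115 bp apart, and another of 403 bp followed, so that the 3 peaks spanned 4022 bp (chr12:59034996-59039017). They lay between genes, with Trappc6b, a vesicle tethering subunit gene, as the nearest protein-coding gene to the pair (5494 and 7276 bp). The nearest MGE peak was 69916 bp away. The following in width was a peak of 1109 bp inside the phospholipase gene Pla2g5. Peaks of 937 bp lay inside Tpm3, a tropomyosin gene (chr3:90077134-90078070), and 9405 bp from A430033K04Rik (chr5:138657854-138658790). A peak of 839 bp lay 45904 bp from Twist2, a mesenchymal transcription factor gene (chr1:91755138-91755976), with no MGE peak within 118783 bp. Peaks of 807 bp and 798 bp lay inside the glycogen synthase gene Gys1 (chr7:45451053-45451859) and 6320 bp from Nav2, a neuron navigator gene (chr7:49616012-49616809). The other members of the widest 15 measured between 798 and 978 bp. Several of the 15 lay close to an MGE peak. The distances were 425 bp (inside D430042O09Rik), 641 bp (near A430033K04Rik), 740 bp (chr14:69146330-69147127) and 2348 bp (Pla2g5). The rest of the 15 lay 3895 to 118783 bp from an MGE peak.

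Most telencephalon-only peaks were inside genes, in much the same proportion as shared peaks when all annotated genes were counted. The share was 59.0% (2135 of 3616, interval 57.4 to 60.7%), against 57.7% of shared wide peaks (5193 of 9000, 56.7 to 58.7%). The intervals overlapped, and with a minimum width raised by 100 bp the order turned round (57.5% of telencephalon-only and 58% of shared peaks). With protein-coding genes alone the difference was larger (53.6% of telencephalon-only and 50.6% of shared peaks). Narrower telencephalon-only peaks were inside genes in 59.9% of cases (58.9 to 60.9%). MGE-only peaks of the same widths had 52.2% inside genes (50.3 to 54.1%), and the difference in narrowest widths given above applies to this comparison. Telencephalon-only peaks between genes lay at a median of 8137 bp from a gene, against 7570 bp for shared wide peaks and 21218 bp for MGE-only peaks. Only 2.41% of telencephalon-only peaks lay 50 to 100 kb from the nearest gene (87 peaks), against 1.90% of shared wide peaks and 10.5% of MGE-only peaks.

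The genes that held telencephalon-only peaks had a median length of 78.6 kb (interquartile range 30.1 to 209 kb), counted per peak and with the longest gene where several overlapped. Hosts of shared wide peaks had 66.9 kb (27.0 to 168 kb), and hosts of MGE-only peaks 138 kb (56.6 to 413 kb). Protein-coding genes held 87.4% of the telencephalon-only peaks inside genes (interval 85.9 to 88.8%) and 86.5% of the shared ones (85.6 to 87.5%). Where the strand of the host was known, 21.2% of telencephalon-only peaks lay in the first 25% of the gene (19.3 to 23.3%, n = 1659) and 29.4% in the last 25% (27.2 to 31.6%). The corresponding shares of shared wide peaks were 20.8% (19.5 to 22.1%) and 30.9% (29.5 to 32.3%). Those of MGE-only peaks were 23.9% (21.4 to 26.6%) and 22.9% (20.4 to 25.5%). Narrower telencephalon-only peaks had 23.6% (22.4 to 24.9%) and 25.7% (24.5 to 27.0%), and hosts with a median of 86.1 kb (34.0 to 229 kb). By position, the wide telencephalon-only peaks resembled shared wide peaks. For the last part of the gene, the intervals of narrower telencephalon-only and of MGE-only peaks did not overlap theirs. By median host length they lay between shared wide and narrower telencephalon-only peaks.

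Telencephalon-only peaks were mostly far from any MGE peak. The median distance was 20406 bp (interquartile range 7128 to 49218.5 bp), and 2434 peaks (67.3%) had none within 10 kb. Narrower telencephalon-only peaks had a median of 23832 bp. MGE-only peaks of the same widths lay farther from the other list, at a median of 47877 bp, although the telencephalon list is the longer of the lists (31141 against 24888 peaks). Within 1 kb, 191 telencephalon-only peaks had an MGE peak (5.28%, interval 4.58 to 6.06%), against 582 of the narrower telencephalon-only peaks (5.93%, 5.47 to 6.42%) and 75 MGE-only peaks (2.85%, 2.25 to 3.56%). In 160 of the 191 cases the neighbouring MGE peak overlapped another telencephalon peak (83.8%, 77.8 to 88.7%), so the telencephalon-only peak lay beside a shared site. Where the nearest MGE peak lay over 10 kb away, it overlapped a telencephalon peak in 1666 of 2434 cases (68.4%, 66.6 to 70.3%). Among all MGE peaks on these chromosomes the share was 59.2%.

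**Figure D2:**
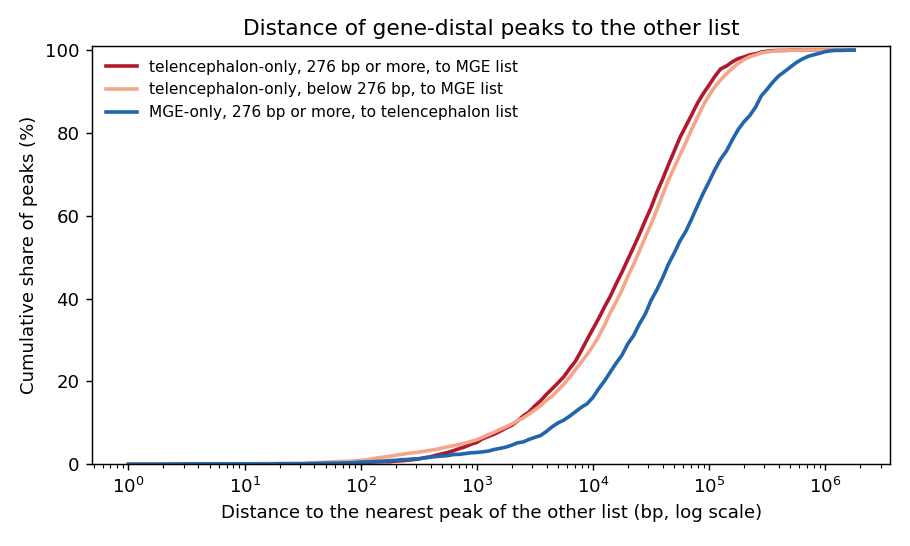
Cumulative share of peaks by distance to the nearest peak of the other list (bp, log scale), for wide telencephalon-only (red), narrower telencephalon-only (orange) and wide MGE-only (blue) gene-distal peaks. The medians are 20406, 23832 and 47877 bp, and both telencephalon curves run left of the MGE-only curve above 1 kb.

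The closest neighbours were nearly touching. A 321 bp peak 10888 bp from Ttc34 (chr4:154826260-154826580) lay 2 bp from an MGE peak of 472 bp, and a 282 bp peak inside Vwa1, an extracellular matrix gene (chr4:155769823-155770104), lay 30 bp from an MGE peak of 540 bp. At the other extreme, a 282 bp peak inside the uncharacterised gene Gm31569 (chr12:29248517-29248798) had no MGE peak within 501976 bp. Peaks inside Ndfip2, an adaptor of ubiquitin ligases (chr14:105296243-105296775, 533 bp), and inside Arap2, a GTPase-activating protein gene (chr5:62706931-62707229, 299 bp), had none within 481820 and 456659 bp.

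The telencephalon-only peaks rarely stood close together. Linked at 5 kb, 3426 of them stood alone, 178 formed 89 pairs and 12 formed 4 groups of 3. Another telencephalon-only peak lay within 5 kb of 5.25% of them (interval 4.55 to 6.03%), against 14.4% of shared wide peaks with another of their own kind (13.7 to 15.2%), of which there are more. Counting neighbours of any kind in the telencephalon list removes that difference in number. Then 30.3% of telencephalon-only peaks (28.8 to 31.8%) and 33.6% of shared wide peaks (32.6 to 34.5%) had one within 5 kb. The nearest wide gene-distal neighbour of a telencephalon-only peak was itself telencephalon-only in 29.1% of cases (27.6 to 30.6%), and that of a shared wide peak in 28.8% (27.8 to 29.7%). Both are near the background of 28.7%. Besides the group near Trappc6b, groups of 3 lay inside Cdh4, the gene of R-cadherin (chr2:179872793-179877962), inside Myo1h, a class I myosin gene (chr5:114309053-114315311), and near Dnajb5 (chr4:42961646-42965822).

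Stretches between consecutive MGE peaks held 1 telencephalon-only peak in 2600 cases, 2 in 400, 3 in 47, 4 in 15 and 5 in 3. The stretches with 5 lay over Tom1l2 and Atpaf2 (chr11:60251258-60412496), over Angptl2 and Ralgps1 (chr2:33219259-33349480) and over Acacb and Myo1h (chr5:114247904-114315311). The MGE list had no peak for 312602, 276314 and 149973 bp there. Of the 15 stretches with 4, that with the longest span had En1 as the gene nearest to its first peak (chr1:120594572-121419446). Another was that of Foxp1, a transcription factor of striatal neurons, and Eif4e3 (chr6:99485704-99652571), in an interval of 472519 bp without an MGE peak. These intervals held 13 telencephalon peaks of any kind at En1 and 7 at Foxp1.

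Inside genes, telencephalon-only peaks were found in 1954 of 47042 annotated genes: 1717 held 1, 193 held 2, 34 held 3, 7 held 4 and 3 held 5. Among protein-coding genes, 7.81% held at least 1. The count followed gene length. The share was 1.05% for protein-coding genes up to 10 kb, 5.11% from 10 to 30 kb, 11.4% from 30 to 100 kb, 23.9% from 100 to 300 kb and 45.4% above 300 kb. Per Mb of gene, the density was 2.50, 2.87, 2.3, 1.80 and 1.15 in the same order, and that of shared wide peaks 6.81, 7.80, 5.68, 4.22 and 2.39. The telencephalon-only share of wide gene-distal peaks was 26.8% in the shortest class (interval 21.8 to 32.4%) and 32.6% in the longest (29.8 to 35.5%).

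The genes with most telencephalon-only peaks are named by their count. Dst, which encodes the cytoskeletal linker dystonin (chr1:33907888-34308662, 401 kb), held 5, with widths of 317, 305, 400, 311 and 507 bp. The gene also held 3 shared wide gene-distal peaks, and each of its 5 telencephalon-only peaks was at least 16293 bp from an MGE peak. Ralgps1, an exchange factor for Ral GTPases (chr2:33133419-33371499, 238 kb), also held 5, of 286 to 336 bp, and 4 of them lay within 22.2 to 54.7 kb of the gene start. The MGE list had 1 peak in the gene. Trio, a guanine nucleotide exchange factor that acts in axon guidance (chr15:27730649-28025848, 295 kb), held 5, of 281 to 401 bp, as well as 2 MGE-only peaks above 275 bp.

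Atp9a, a phospholipid flippase gene (chr2:168634438-168742370), and Tom1l2, an endosomal sorting adaptor gene (chr11:60226714-60352932), each held 4 telencephalon-only peaks and no MGE peak of any width. The peaks in Atp9a were 367, 329, 640 and 417 bp wide, and those in Tom1l2 had the minimum width, 298, 304 and 310 bp. Of the 44 genes with 3 or more telencephalon-only peaks, 4 had no MGE peak inside, a share not counted for genes of like length. The other two, named after their values were seen, were Pum3, an RNA-binding protein gene, and Unc13b, a gene of synaptic vesicle priming. Myo1h was the densest of the 10 genes, with 4 peaks in 75.3 kb (53.1 per Mb), all within 25.8 kb of the gene start. Nav2 held 4 among 6 shared wide gene-distal peaks. Robo2, the receptor for Slit guidance cues (chr16:73891976-75447443), held 4 of 280 to 300 bp in 1555 kb, against 3 shared wide gene-distal peaks and 3 MGE-only peaks above 275 bp. At any width, Robo2 held 10 telencephalon peaks and 14 MGE peaks. Agap1 and Cdh4 held 4 each.

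**Figure D3:**
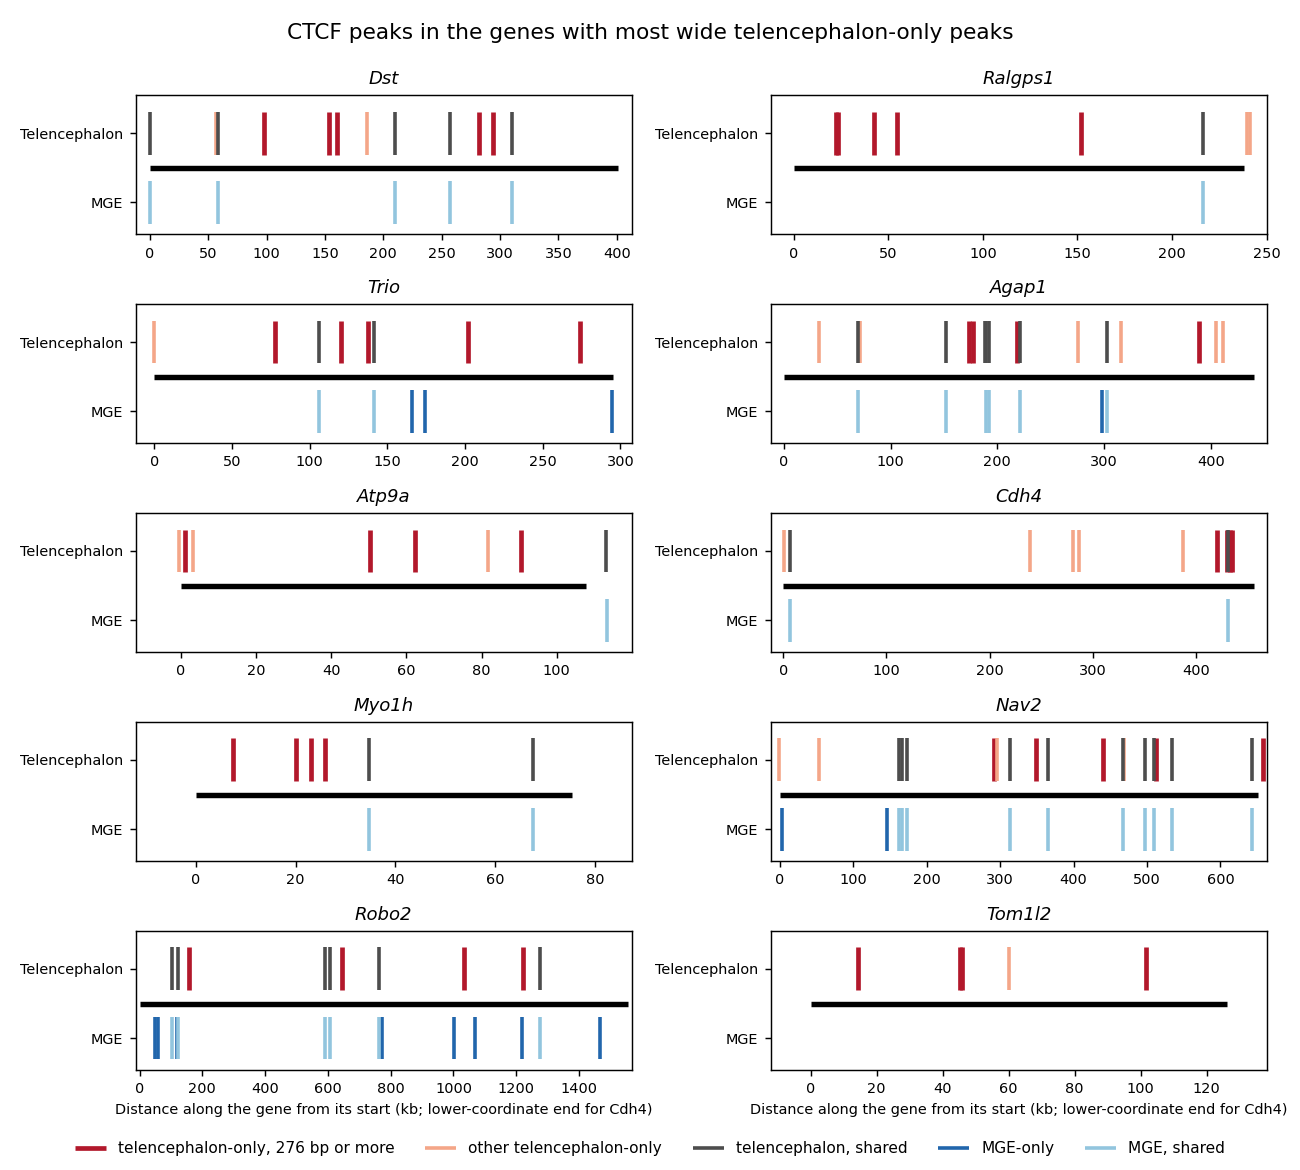
CTCF peaks along the 10 genes with most wide telencephalon-only peaks and 10 kb either side, by distance from the gene start in kb (for Cdh4 from the lower-coordinate end). Upper ticks are telencephalon peaks (red, telencephalon-only above 275 bp away from gene ends; orange, other telencephalon-only; grey, shared), lower ticks are MGE peaks, and the black bar is the gene; the MGE row has no tick over Tom1l2.

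On the chromosomes, the telencephalon-only share of wide gene-distal peaks lay between 25.9% on chromosome 17 (interval 22.3 to 29.8%) and 32.0% on chromosome 5 (28.9 to 35.2%). The interval held the overall share on 18 of 19 chromosomes, all but chromosome 5.

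**Figure D4:**
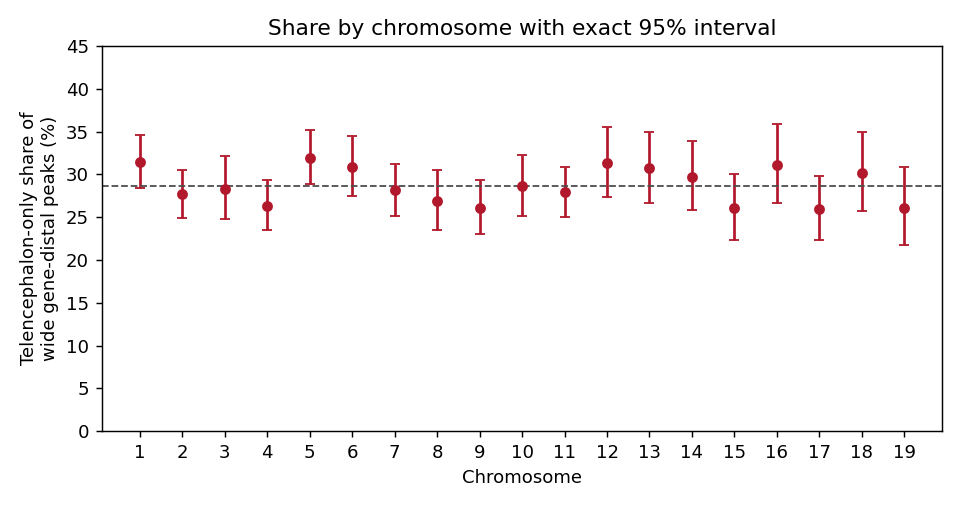
Telencephalon-only share of wide gene-distal telencephalon peaks on each of chromosomes 1 to 19 (percent, points) with exact 95% intervals (bars). The dashed line is the share over all 19 chromosomes, 28.7%, which lies within the bars of 18.

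Lists of 284 genes of forebrain development, neuronal function and other cell types were used to describe which genes the telencephalon-only peaks accompanied. In the genes or within 10 kb of them lay 91 of the 3616 peaks, at 73 genes. Over all protein-coding genes, 13.2% had at least 1 in this window (2722 of 20665), and 28.6% of the wide gene-distal telencephalon peaks in these windows were telencephalon-only (2537 of 8878). The share of peaks is less sensitive to gene length than the share of genes. In all 10 lists the interval of the peak share held 28.6%.

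Dorsal and cortical projection neuron genes had 9 of 21 peaks (42.9%, interval 21.8 to 66.0%), at 8 of 30 genes. This was the highest share of the lists with 10 kb windows, but not in gene bodies alone or with 50 kb windows, where neural progenitor genes had 44.4% and 35.1% and dorsal genes 40.0% and 31.2%. They were Eomes, a factor of intermediate progenitors, whose 577 bp peak lay 2310 bp from the gene (chr9:118488154-118488730) and 956 bp from an MGE peak, and Neurod2, a neuronal differentiation factor (342 bp, 6707 bp from the gene). Lhx2, a cortical selector gene, had a peak of 289 bp at 8804 bp from the gene. Cux1, a factor of upper layer neurons, had a peak of 314 bp inside the gene and 1 of the minimum width at 1458 bp from it. Wnt3a, a ligand of the cortical hem, had a peak of 356 bp at 3053 bp, and Rspo2, an enhancer of Wnt signalling, a peak of 346 bp inside the gene. Reln, the secreted cue of Cajal-Retzius cells, held a peak of 322 bp with no MGE peak within 172070 bp (chr5:21986274-21986595), and Trp73 held a peak of 437 bp. Only 4 of these genes held a peak in the gene body, namely Cux1, Rspo2, Reln and Trp73. The nearest MGE peaks lay 6017 bp from the Neurod2 peak, 2054 bp from that of Lhx2 and 3947 bp from that of Wnt3a. For Cux1 the distances were 22085 bp for the inner and 1018 bp for the outer peak. For Rspo2 and Trp73 they were 43982 and 39687 bp.

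MGE and cortical interneuron genes had 5 of 24 peaks (20.8%, 7.13 to 42.2%), at 5 of 34 genes, all in gene bodies. This interval overlapped that of the dorsal genes, and in gene bodies alone the shares were 5 of 14 for the MGE list (35.7%, 12.8 to 64.9%) and 4 of 10 for the dorsal list (40.0%, 12.2 to 73.8%). Erbb4, the neuregulin receptor of migrating interneurons, held a peak of 307 bp (chr1:68106460-68106766), beside 10 MGE peaks in its window. Mef2c, an activity-linked factor, held a peak of 282 bp, Zeb2, a regulator of interneuron fate, a peak of 334 bp, and Npas1 a peak of 525 bp that lay 1545 bp from an MGE peak. Neural progenitor genes had 7 of 22 peaks (31.8%, 13.9 to 54.9%), at 5 of 25 genes. Nfia, a factor of glial and neuronal differentiation, held 3, of 427, 329 and 289 bp, and no shared wide gene-distal peak. The nearest MGE peaks to these 3 lay 127409, 74575 and 75065 bp away. Notch1 had a peak of 449 bp at 8180 bp from the gene, Notch2 a peak of 323 bp inside it, Prom1 a peak of 375 bp at 3000 bp and Nfix a peak of 299 bp at 6830 bp. Lateral and caudal eminence genes had 3 of 12 peaks (25.0%, 5.49 to 57.2%). A pair belonged to Foxp1, with 448 bp inside and 347 bp outside the gene, and the remaining peak lay 5000 bp from Meis1 (299 bp).

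Among migration and axon guidance genes 18 of 62 peaks were telencephalon-only (29.0%, 18.2 to 41.9%), at 13 of 39 genes. The widest lay inside Plxna4, a semaphorin co-receptor gene (382 bp, with no MGE peak within 335539 bp), Unc5b, a netrin receptor gene (362 bp), and Dab1, the reelin signalling adaptor gene (358 bp). The Unc5b and Dab1 peaks lay 624 and 28055 bp from an MGE peak. Synaptic adhesion and scaffold genes had 22 of 104 peaks (21.2%, 13.8 to 30.3%), at 15 of 40 genes, which are mostly long. The widest lay inside Cdh13 (580 bp), Cntnap2 (573 bp) and Dlg2, a postsynaptic scaffold gene (455 bp). Dscam, a homophilic adhesion gene, held 3. Ion channel and receptor genes had 17 of 57 peaks (29.8%, 18.4 to 43.4%), at 15 of 36 genes, the widest inside Cacna1c, a calcium channel gene (548 bp), Grin2b, an NMDA receptor subunit gene (502 bp), and Kcnip4 (497 bp).

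**Figure D5:**
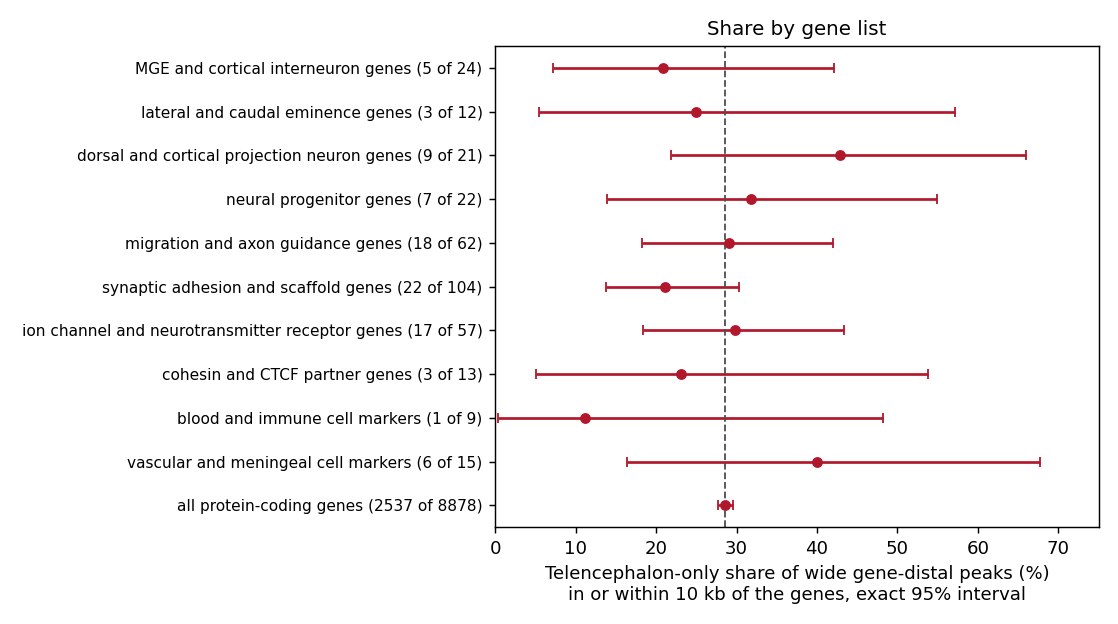
Telencephalon-only share (percent, points) of the wide gene-distal telencephalon peaks in or within 10 kb of the genes of each list, with exact 95% intervals (bars) and the counts behind each. The dashed line is the share for all protein-coding genes, 28.6%, and lies within the bars of all 10 lists.

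Genes of cohesin and CTCF partners had 3 of 13 peaks (23.1%, 5.04 to 53.8%). They lay inside Ctcf itself (313 bp), Smc3, a cohesin core subunit gene (295 bp), and Pds5a, a cohesin regulator gene (the minimum width). Markers of other cell types were included because dissected tissue holds vessels and blood. Vascular and meningeal markers had 6 of 15 peaks (40.0%, 16.3 to 67.7%), at 6 of 20 genes, the widest at Rgs5, a pericyte marker (572 bp), Erg, an endothelial factor (490 bp, 8626 bp from the gene), and Col1a1, a collagen gene (382 bp). Blood and immune markers had 1 of 9 (11.1%, 0.281 to 48.2%), 1705 bp from the complement gene C1qa (355 bp). Peak lists hold no expression values, so these markers do not check the tissue labels.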

How the data were processed

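Peak lists of the CTCF libraries of telencephalon and MGE were used, and the input libraries were not analysed here. The authors' deposited lists give chromosome, start and end of each peak and no score, fold or p-value, so peak positions, an other kind of unit, were the deposited measure. Bowtie2 2.3.2, MACS2 2.1.1.20160309 and the build mm10 are named in the submitters' processing notes. The calling threshold, the control and any filter were not given in the sources used here. Depth is unknown.

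Gene positions came from a RefSeq table of GRCm38.p6, which has mm10 coordinates, and are 1-based. The width minimum was 276 bp (end minus start as deposited, counted from 0). Peaks were placed by midpoint, and overlap of 1 bp counted as shared. Distances are differences of coordinates. Shares carry exact 95% Clopper-Pearson intervals (scipy 1.17.1, numpy 2.4.6, pandas 2.3.3), which treat peaks as independent. Chromosome 18 was left out of the sequence search. No genome sequence was used here, so the motif search was confined to RefSeq promoter windows. Overlap and distance code was tested on simulated data. Regions were chosen, and gene lists drawn up, with earlier results of these data known. Named regions were the widest 15, those at the width border, nearest to and farthest from MGE peaks, the groups with most peaks, the 10 genes with most peaks, and list genes, some of which are not reported here. Alternatives varied width, overlap, gene ends, gene type, gene distance, list windows and motif mismatches.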

Additional observations from a re-analysis of the deposited data

Results flagged for a closer look

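Chromosomes outside the rule were looked at in the same way. On chromosome X, 71 wide gene-distal telencephalon peaks overlapped no MGE peak, which is 52.6% of 135 (interval 43.8 to 61.2%). This stands out because no chromosome from 1 to 19 exceeded 32.0%. The MGE list showed the same on X, where 124 of 234 gene-distal peaks above 275 bp overlapped no telencephalon peak (53.0%, 46.4 to 59.5%), against 22.0% on chromosomes 1 to 19. Below the width minimum, 74.6% of gene-distal telencephalon peaks on X were unshared (70.5 to 78.5%), close to the 77.3% on chromosomes 1 to 19. Wide gene-distal peaks on X were narrower, with a median of 311 bp against 374 bp. Above 350 bp, a width chosen after seeing the data, 22 of 43 were unshared on X (51.2%, 35.5 to 66.7%), against 21.8% on chromosomes 1 to 19. On chromosome Y, 2 of 14 wide telencephalon peaks overlapped no MGE peak (14.3%, 1.78 to 42.8%). On sequences other than the numbered and sex chromosomes, 5 of 47 wide telencephalon peaks overlapped no MGE peak (10.6%, 3.55 to 23.1%), with no rule on genes applied.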

How the results depend on the processing

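Of 47 recomputed values, 33 stayed within the interval of the reported value (or within 1.5 times for counts) and 14 moved. The telencephalon-only share of 28.7% became 34.2% with the width minimum lowered by 32 bp, 20.5% with it raised by 100 bp and 34.5% when overlap needed 50% of the telencephalon peak, and the number of peaks became 1281 with the raised minimum and 2390 with gene ends of 5 kb. The share inside genes became 53.6% with protein-coding genes alone, against 50.6% of shared wide peaks at that setting. The median distance to an MGE peak became 17424 bp with the raised minimum and 22894.5 bp with gene ends of 5 kb. The share with another such peak within 5 kb became 6.55% with the lowered and 2.26% with the raised minimum. In listed genes the share of 26.9% (91 of 338) became 34.6% with the lowered and 13.6% with the raised minimum, where the interval (8.64 to 20.1%, 21 of 154) did not hold the share of all wide gene-distal peaks at that setting, 20.5%. The motif share of 10% became 56.7% with 1 mismatch and 0 of 7 windows (0%, interval up to 41.0%) with the raised minimum. Fewer or more peaks by construction lie behind the changes in number, and the cause of the others was not tested. The 50% overlap was run for the share and the number alone. No paired analysis was possible because each tissue has 1 CTCF library. Depth, called heights and replicates, which would show whether an absent MGE peak is weak or missing, are unknown.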

Other observations

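The 5 widest of the telencephalon-only gene-distal peaks on X measured 496 to 534 bp. Those of 534 bp lay near Gm7905 (chrX:135481934-135482467) and Nxf7 (chrX:135601592-135602125), and that of 512 bp near Gm6215 (chrX:135360743-135361254), 3 of the 5 thus lying between the first and last of these positions.

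On chromosomes 1 to 19, 193 genes held 2 telencephalon-only peaks, 34 held 3, 7 held 4 and 3 held 5. Among these genes, 46 held no shared wide gene-distal peak and no MGE peak of any width. How often other genes of like length and peak number lack an MGE peak was not counted, so nothing is read from this number. Named after their values were seen, they included Kmt2c, a histone methyltransferase gene of 227 kb, Adcy3, an adenylyl cyclase gene of 80.4 kb, Itgb1, an integrin gene of 47.9 kb, and Akap12, a kinase anchoring gene of 93.1 kb, each with 2.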
